A study of Mus musculus with 9 samples.

Results

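The wild-type renal vesicle of the mouse kidney was described from 5 of the 9 arrays of the series, those labelled as vesicles from wild-type kidneys at the embryonic stage E12.5. All probe sets other than the manufacturer's controls entered, 45037 of 45101, and 34945 of them carried a single gene symbol and stood for 18193 genes. Each sample was, per the labels, a biologically independent pool of about 30 to 50 vesicles cut from the kidney by laser capture microdissection. The RNA was amplified in 2 rounds, labelled with biotin and read on an Affymetrix array. The labels give no strain, sex or number of embryos for the pools. The other 4 arrays, from Lim1 mutant kidneys, enter no value here.

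The renal vesicle is the small epithelial ball that forms when mesenchyme capping a ureteric bud tip turns into epithelium. The nephron, which does not include the collecting duct, grows out of it. Wnt signals start this conversion, and Notch, FGF and BMP signals then pattern the vesicle into its proximal and distal ends. Lhx1, Jag1, Dll1, Ccnd1 and Wnt4 are used as markers of the vesicle, and Pax8 as a marker of the early nephron lineage from which it forms.

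Levels are given in 2 ways. The deposited signal is a linear intensity with no physical unit, and the within-array percentile is the rank of that signal among the 45037 probe sets of its array, from 0 to 100. A gene with several probe sets is represented by that with the highest mean percentile, so genes with more probe sets had more chances to rank high. A percentile is the position of a signal, not of an RNA amount, because probe sets bind with different strength and lie at different distances from the 3 prime end of the transcript. A gene is called high here at or above the 90th percentile on all 5 arrays, dim below the 50th on all 5, and variable at or above the 90th on at least 1 array and below the 50th on at least 1 other. Of the 18193 genes, 1911 (10.5%) were high, 3765 (20.7%) dim and 84 (0.462%) variable, and 12433 were in none of these classes.

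The arrays shared a common scale and differed in quality. Array medians ran from 144 to 184 and 90th percentiles from 5270 to 5416, while the brightest 1% of probe sets held from 21.8% of the summed signal on array 2 to 32.4% on array 1. Across all probe sets, pairs of arrays had rank correlations between 0.730 (arrays 1 and 3) and 0.843 (arrays 2 and 5), with a median of 0.780 over 10 pairs that share arrays. The signal ratio between the 3 prime and 5 prime control probe sets of Gapdh was 12.4 on array 2, 23.6 to 36.2 on arrays 5, 4 and 1, and 87.6 on array 3, and that of beta-actin ran from 14.7 on array 4 to 18.0 on array 3 and 21.7 on array 5. Arrays 1 and 3 stood apart most. Counts of high, dim or variable genes that moved by more than 1.5 times without an array are given without it as well, while means, SDs and medians are over all 5. Leaving out an array loosens the rules for high and dim, and the shares of all genes in both classes then rose as well. The labels call the pools biologically independent, and with 5 of them their number limits the precision of every SD below.

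Of the 6 markers of the vesicle, Wnt4, Jag1 and Ccnd1 were high on all 5 arrays, and Lhx1, Dll1 and Pax8 were bright without meeting that rule. The secreted signal Wnt4 (chromosome 4, the brighter of 2 probe sets) read 41699, 16325, 12926, 40835 and 28897 on arrays 1 to 5, a mean of 28137 ± 13385 (SD, n = 5). Its lowest reading still lay at percentile 95.6. The Notch ligand Jag1 (chromosome 2) read 49181, 20141, 28895, 47557 and 37661, a mean of 36687 ± 12346, and never fell below percentile 97.6. The G1 cyclin Ccnd1 (chromosome 7) read 83136, 42015, 33554, 59874 and 58718, a mean of 55460 ± 19084, between percentiles 98.5 and 99.6. All 3 genes were lower on arrays 2 and 3 than on arrays 1, 4 and 5, in signal and in percentile. Bright signals as a whole were lower on array 2, whose 99th percentile of signal was 33813.9, against 41547.1 to 46528.5 on the others.

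The other 3 markers moved more in rank. The homeodomain factor Lhx1 (chromosome 11) read 10270.1, 7728, 1696, 18555 and 15186, a mean of 10687 ± 6556. Array 3 alone lay below the 90th percentile there, at 78.6, and the other 4 lay between 92.6 and 97.3. At the second Lhx1 probe set the signals were 5279.9, 3718, 3807, 17587 and 2327, so array 4 was highest at both and the lowest array differed. The Notch ligand Dll1 (chromosome 17) read 7837, 3891, 4874, 12081 and 19282, a mean of 9593 ± 6284, with arrays 2 and 3 again the lowest. The paired-box factor Pax8 (chromosome 2) had the smallest spread of these 3, at 3505, 4233, 3074, 6080 and 7651, a mean of 4909 ± 1916. Its percentiles ran from 85 to 92.5. Other probe sets of the same genes could be far dimmer, with a mean of 188 for the dimmest of the 3 Jag1 probe sets and 200 for the second of Pax8.

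Stretches before the start of transcription are shown for 3 of these markers, as the bright vesicle genes that mark its epithelium and its distal side, and for the embryonic globin gene Hbb-y, as a bright gene of blood cells with another kind of promoter. Each is the 250 bases before the start, from RefSeq (GRCm38.p6), read 5′ to 3′ on the strand of the gene. Capitals mark CG dinucleotides and, in Hbb-y, also the letters CCAAT. The Lhx1 stretch holds CCAAT as well, on the other strand (attgg), where it is not marked. The Wnt4 stretch lies at chr4:137277385-137277634 (plus strand), that of Jag1 at chr2:137116521-137116770 (minus strand), that of Lhx1 at chr11:84525535-84525784 (minus strand) and that of Hbb-y at chr7:103853208-103853457 (minus strand).
Wnt4: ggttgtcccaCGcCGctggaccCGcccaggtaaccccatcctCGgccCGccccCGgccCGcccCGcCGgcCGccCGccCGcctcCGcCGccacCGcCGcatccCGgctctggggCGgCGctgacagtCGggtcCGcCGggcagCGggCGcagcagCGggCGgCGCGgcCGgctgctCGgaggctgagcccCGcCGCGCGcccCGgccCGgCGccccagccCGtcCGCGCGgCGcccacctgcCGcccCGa
Jag1: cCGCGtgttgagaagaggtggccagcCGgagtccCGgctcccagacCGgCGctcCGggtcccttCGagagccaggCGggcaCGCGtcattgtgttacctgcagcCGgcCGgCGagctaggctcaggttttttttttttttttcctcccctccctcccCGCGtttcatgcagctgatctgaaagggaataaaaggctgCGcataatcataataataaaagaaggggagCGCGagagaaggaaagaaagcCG
Lhx1: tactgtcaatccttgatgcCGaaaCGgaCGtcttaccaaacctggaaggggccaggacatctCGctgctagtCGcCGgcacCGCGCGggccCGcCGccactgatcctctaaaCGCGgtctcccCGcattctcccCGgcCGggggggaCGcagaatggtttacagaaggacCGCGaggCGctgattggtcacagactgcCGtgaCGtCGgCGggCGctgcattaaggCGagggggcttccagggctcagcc
Hbb-y: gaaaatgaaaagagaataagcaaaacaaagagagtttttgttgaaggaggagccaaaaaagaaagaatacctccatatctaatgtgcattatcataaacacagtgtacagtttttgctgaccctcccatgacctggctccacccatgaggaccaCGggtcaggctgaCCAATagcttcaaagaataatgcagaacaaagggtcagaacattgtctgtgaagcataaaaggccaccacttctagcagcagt

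The 3 marker stretches hold 44 (Wnt4), 20 (Jag1) and 26 (Lhx1) CG dinucleotides and that of Hbb-y holds 1. Promoters of high genes had many CG dinucleotides as a class. RefSeq promoters, 250 bases before to 50 after the start, were found for 1594 of the 1911 high genes (83.4%), with 2001 promoters in all. Their median was 24 CG dinucleotides, against 7 over all 32851 promoters of the table, and only 27 of them (1.35%) held at most 1, against 14.1% of all. The 32851 promoters belong to 27025 genes, and 14452 measured genes were found among these. The comparison set thus also holds genes that were not measured here. The letters GGGCGG stood on either strand in 68.1% of the promoters of high genes and in 35.7% of all, TATAAA in 6.65% and 13.6%, and CCAAT in 40.4% and 37.4%. Among the 240 genes with a mean percentile of at least 99, of which 195 had promoters in the table, CCAAT stood in 50.8%. For dim, variable and all measured genes fewer than 80% had promoters in the table (76.7%, 72.6% and 79.4%), so no shares are given for them. These are matches of letters in a window and show nothing about binding.

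Genes of the renal vesicle were bright as a list, which was chosen with earlier results of these data known. Of 30 measured, 6 were high (20%, against 10.5% of all genes), none was dim or variable, and 22 reached the 90th percentile on at least 1 array, as 24.3% of all genes did. The median over the list of the mean percentile was 89.7, against 61.9 over all genes. Besides the 3 markers, the high members were Greb1, a gene induced by estrogen in other tissues (mean percentile 96.8), Pou3f3, a POU-domain factor of the distal nephron (94.7), and Cdh6, the cadherin of the early nephron epithelium (94.0). Pou3f3 was just inside the rule, with percentile 90 on array 3, and Bmp2, a BMP ligand, just outside it, with 89.6 on array 3 and 91.8 to 99.4 on the others. Bmp2 signals were 15537, 6933, 5091, 53401 and 26104, with array 4 the highest and array 3 the lowest. Without array 3 the list had 10 high members, where 11.8% of all genes were high. Without arrays 1 and 3 it had 11, where 12.9% of all genes were high. With percentiles averaged over the probe sets of a gene it had 2, where 3.85% of all genes were high.

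**Figure D1:**
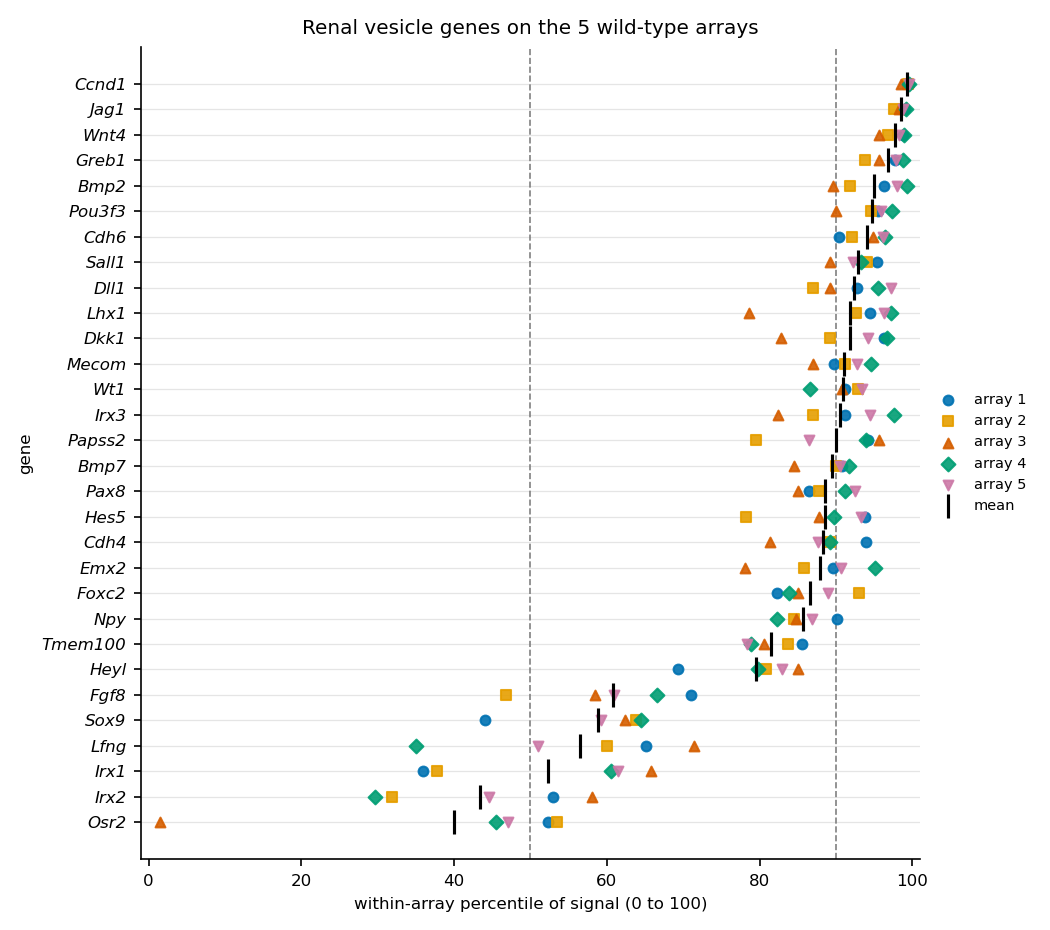
Within-array percentile of the signal (0 to 100, horizontal) of the 30 measured renal vesicle genes on each of the 5 wild-type arrays (symbols), with their mean (black bar) and lines at the 50th and 90th percentiles. Ccnd1, Jag1 and Wnt4 sit above percentile 95 on every array, array 3 is at the left for many genes such as Lhx1 (78.6), and Osr2 spans from 1.5 to 53.5.

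The lower end of the list held the transcription factors Irx1, Irx2 and Osr2, the glycosyltransferase Lfng, which modifies Notch receptors, Sox9 and Fgf8. Fgf8, an FGF ligand that the forming nephron needs for survival, read 735, 150, 255, 671 and 307, between percentiles 46.8 and 71.0. Osr2 read 171, 229, 3.97, 143 and 124, so array 3 lay apart from the other 4 while all were faint. Sox9 had a mean percentile of 58.8, Lfng of 56.5, Irx1 of 52.3 and Irx2 of 43.4. Each of these values comes from the probe set that represents its gene and is a position of signal only. Osr2 and Lfng each have 2 probe sets, of which that with the higher mean percentile is given.

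Cap mesenchyme genes, expressed by the progenitors that surround the bud tip, were of middle to high rank. Of 17 measured, only Itga8 was high (5.88%, against 10.5% of all genes), 1 was dim (5.88%, against 20.7%) and none variable. The median mean percentile was 79.1, against 61.9. Itga8, the integrin chain that binds nephronectin of the bud, read 6424, 7409, 8238, 11316 and 6882, close together on all arrays. Sall1 (92.8), Eya1 (91.1) and Wt1 (91.0), transcription factors and a coactivator of the nephron lineage, had mean percentiles close to its own of 92.8. Six2, the factor that keeps progenitors undifferentiated, read 1040, 1154, 1023, 903 and 858, a mean of 996 ± 117, between percentiles 70.2 and 74.3. Cited1, which marks the least committed progenitors, was fainter and uneven at 369, 334, 44.4, 6.36 and 128. Dapl1 was the dim member. The list shares Sall1, Wt1 and Tmem100 with the vesicle list. Without array 3 or array 4, 2 members were high, where 11.8% and 11.2% of all genes were high.

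Structural genes of the podocyte, the filtering cell of the finished nephron, ranked near all genes as a list. Of 12 measured, 1 was high (8.33%, against 10.5% of all genes) and 3 dim (25%, against 20.7%), and the list median was 55.5, against 61.9. The high member was Cdkn1c, an inhibitor of cyclin-dependent kinases that podocytes keep, at a mean percentile of 96.1. Actn4 (92.6) and Cd2ap (90.5), which act on actin in many cell types, were next. Nphs1, the nephrin of the slit diaphragm, averaged 37.1, and Synpo, Col4a3 and Col4a4, of the mature foot process and basement membrane, were dim. Without array 4 the dim members were 5, where 21.9% of all genes were dim. Without array 5 the high members were 2, where 10.7% of all genes were high.

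Of 23 mature tubule genes none was high and 8 were dim (34.8%, against 20.7% of all genes), with a median of 44.0. The dim members were transporters and other products of differentiated segments, Kcnj1, Scnn1g, Slc12a3, Umod, Slc12a1, Aqp1, Slc5a1 and Slc9a3. Kcnj1, the potassium channel of the loop of Henle and distal tubule, read 8.21, 14.5, 29.9, 42.8 and 33.5. Calb1, the calcium-binding protein calbindin of the distal tubule and of the ureteric bud, was the exception, at 1279, 39640.1, 6566, 696 and 2002. Only arrays 2 and 3 lay above the 90th percentile for it, at 99.3 and 91.7. Its other 3 probe sets ranked lower, with mean percentiles of 47.4, 34.3 and 21.0, and array 2 was also the highest at 2 of them.

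Hox genes, which set position along the body axis, were ranked by paralogue group. Of 33 measured, 2 were high (6.06%, against 10.5% of all genes) and 5 dim (15.2%, against 20.7%). A further 1 was variable (3.03%, against 0.462%). In groups 1 to 3, 7 measured genes had a median mean percentile of 65.2 with none high or dim, and in groups 4 to 8, 12 genes had a median of 79.1 with 1 dim. In groups 9 to 11, 9 genes had a median of 80.3 and included the only 2 high members, Hoxa9 and Hoxd10. Hoxa9 read 42768, 27971, 39981, 60019.8 and 33394 and Hoxd10 read 6767, 8292, 11508, 10548 and 8967. In groups 12 and 13, whose expression marks the most caudal structures, 4 of 5 genes were dim and the median was 16. The fifth, Hoxd13, was variable: it read 6292 on array 1 and 76.2 to 540.1 on the other 4, and its second probe set read at most 16.3 on any array. Without array 1 no Hox gene was variable.

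Among Notch ligands and receptors, 3 of 12 were high (25%, against 10.5% of all genes), none was dim (20.7% of all genes were) and none variable. The ligands ran from Jag1 (98.6) and Dll1 (92.4) to Jag2 (61.4), Dll4 (58.0) and Dll3 (45.0) by mean percentile. The receptors Notch2 (97.5) and Notch1 (93.7) were high, Notch3 was at 87.8 and Notch4, best known from endothelium, at 52.9. Notch2, the receptor needed for proximal nephron fates, read 41450.4, 11275, 20277, 19945 and 34872, a mean of 25564 ± 12275, with array 2 the lowest and array 1 the highest. Its other probe set had a mean of 210.3. Of the enzymes that modify the receptors, Rfng stood at 82.9, Mfng at 60.3 and Lfng at 56.5.

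Of 18 Notch transducers and targets, 3 were high (16.7%, against 10.5% of all genes) and 1 dim (5.56%, against 20.7%). The list median was 88.1, against 61.9. The high members were Psenen, a subunit of gamma-secretase, Adam10, the protease that cleaves the bound receptor, and Hey1, a target repressor. Hey1 read 26327, 14988, 12317, 13274 and 22218, all above percentile 95. The DNA-binding partner of the cut receptor, Rbpj, had a mean percentile of 92.5. Other targets lay lower, with Nrarp at 89.5, Hes5 at 88.6, Hes1 at 83.9, Heyl at 79.5 and Hey2 at 40.6, and the coactivator Maml2 was dim.

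Wnt ligands and receptors were spread over the whole scale. Of 34 measured, 3 were high (8.82%, against 10.5% of all genes) and 5 dim (14.7%, against 20.7%). The median was 60.2, against 61.9. Wnt4 was the only high ligand, and the frizzled receptors Fzd7 and Fzd2 were the high receptors. Fzd7 was among the steadiest signalling genes, at 18045, 15137, 20636, 16772 and 19351, within percentiles 96.6 to 97.4. The next ligands were Wnt5b (87.3) and Wnt11 (70.5), the latter a gene of the ureteric bud tip, and Wnt3, Wnt1, Wnt2b and Wnt8a were dim. Wnt3 read 1.40 to 5.69 on the 5 arrays. Of the coreceptors, Lrp6 averaged 90.3 and Lrp5 was dim. Without array 3, 5 of the 34 were high, where 11.8% of all genes were high.

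Of 27 Wnt transducers, inhibitors and targets, 3 were high (11.1%, against 10.5% of all genes) and 2 dim (7.41%, against 20.7%). The median was 73.0, against 61.9. Ctnnb1, the beta-catenin that carries the canonical signal and also binds cadherins, read 95979.5, 53061, 59153, 78300.5 and 73456 and never fell below percentile 99.4. Dvl1, a dishevelled protein of signal transmission (99.1), and Sfrp2, a secreted frizzled-related protein (98.8), were the others. Sfrp2 read 59929, 27934, 22458, 38846 and 53949.7. The secreted inhibitor Dkk1 followed at 91.8, Lef1, a nuclear partner of beta-catenin, at 88.2 and the feedback target Axin2 at 79.0. Dvl3 and the inhibitor Wif1 were dim.

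FGF receptors were bright and most FGF ligands faint. Of 27 ligands and receptors, 2 were high (7.41%, against 10.5% of all genes) and 10 dim (37%, against 20.7%). The median was 43.3, against 61.9. Both high members were receptors: Fgfrl1, which lacks a kinase domain, read 32584, 15821, 28112, 24696 and 25768, and Fgfr2 read 26546, 12369, 12615, 28500.5 and 19572. Fgfr1 (93.0), Fgfr3 (79.5) and Fgfr4 (75.1) came next among the receptors. The highest-ranked ligands were Fgf15 (75.4), Fgf9 (61.7), a signal that maintains nephron progenitors, and Fgf8 (60.8). Fgf20, which acts with Fgf9, averaged 33.1, and Fgf2, Fgf5, Fgf6, Fgf16, Fgf18 and Fgf21 were among the dim ligands.

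The list of FGF targets and feedback genes had a median of 81.7, against 61.9 over all genes. Of its 13 members 1 was high (7.69%, against 10.5% of all genes) and none dim (20.7% of all genes were). Il17rd, a membrane inhibitor of FGF signalling, was the high member at 13014, 6516, 8928, 25931 and 28002, where arrays 4 and 5 were highest. The phosphatase Dusp6 averaged 91.5, the inhibitors Spred2, Spred1 and Spry1 averaged 90.8, 89.5 and 87.2, and the factors Etv5 and Etv4 averaged 84.1 and 70.5. Without array 5, 2 members were high, where 10.7% of all genes were high.

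Of 21 BMP ligands, receptors and antagonists, 2 were high (9.52%, against 10.5% of all genes) and 2 dim (9.52%, against 20.7%). The median was 80, against 61.9. The high members were the receptors Bmpr2 and Bmpr1a. Bmpr2 read 12029.6, 13100.4, 13872, 29429.7 and 25932, again with arrays 4 and 5 highest. The ligands Bmp2 (95), Bmp4 (91.7) and Bmp7 (89.5), the last needed for progenitor survival, were bright, and Bmp6 (40.8) and Bmp8b (39.5) were not. The antagonists Nog, at 8.86 to 17.9 on the 5 arrays, and Chrdl1 were dim. Without array 3 the high members were 5, where 11.8% of all genes were high. Without array 1 the dim members were 4, where 23.6% of all genes were dim.

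Of 12 BMP transducers and targets, 4 were high (33.3%, against 10.5% of all genes), with a median of 84.9. The high members were the shared transducer Smad4, the receptor-regulated Smad5 and Id3 and Id4, targets of the pathway. Smad4 read 23178, 19766, 15979, 28588 and 30490.2. Smad1, which carries the same signals as Smad5, was variable, at 38.5 on array 1 and 7371, 6106, 9147 and 9146 on arrays 2 to 5. Its second probe set also read low on array 1 only, at 95.4 against 2817 to 7024 on the others. The other probe set read at most 31.2 on any array. Without array 1 no member of the list was variable.

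Hedgehog and retinoid genes were high in shares near the 10.5% of all genes, 2 of 13 and 2 of 16. Of 13 hedgehog genes, Smo, the membrane transducer, and Gas1, a coreceptor, were high, and the antagonist Hhip was dim (median 74.5). Smo read 23216, 21351, 21936, 25414 and 29317. The ligands Ihh (53.3), Dhh (44.1) and Shh (34.6) ranked low. Of 16 retinoid genes, Rdh10, which makes retinal, and Rxrb, a nuclear receptor, were high and the receptor Rara was dim (median 63.0). Aldh1a2, the enzyme that makes retinoic acid and a marker of the stroma, averaged 87.8. Cyp26a1, which degrades it, read 716, 820, 7.70, 3064 and 3749.8, so arrays 4 and 5 were the highest, at percentiles 84.9 and 86.9, and array 3 lay at 4.97. Without array 2, 2 members of each list were dim, where 21.8% of all genes were dim.

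Of 14 insulin-like growth factor genes, 3 were high (21.4%, against 10.5% of all genes) and 1 dim (7.14%, against 20.7%). A further 2 were variable (14.3%, against 0.462%), and the median was 85.1. The binding protein Igfbp4 read 53079, 34855, 56321, 53395 and 49202 and was high on all arrays. Igf2, the imprinted fetal growth factor, read 29152, 23964, 30324, 19783 and 21625, a mean of 24969.5 ± 4617, and its second probe set read from 4.76 to 625. The receptor Igf2r was the remaining high member. Igfbp3 was variable, with 6174 on array 4, 24.2 on array 5 and 1079.6 to 1703 on the others, and so was Irs1, an adaptor of the insulin and IGF receptors, with 90.1 on array 1 and 10348 on array 3. Only 1 of the 14 was variable without array 1, 3, 4 or 5. Without array 2 the liver gene Igfbp1 was joined by a second dim member, where 21.8% of all genes were dim.

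Epithelial junction and polarity genes had a high median and few members high on all arrays. Of 29 measured, 2 were high (6.9%, against 10.5% of all genes) and none dim or variable, while 14 reached the 90th percentile on at least 1 array (24.3% of all genes did), and the median was 84.0. Ctnna1, the alpha-catenin that links cadherins to actin, read 61645, 41409.9, 58471, 49840 and 53516, and Cdh6 was the other high member. Epcam (92.7), the polarity kinase Prkci (91.6), the tight junction scaffold Tjp1 (90.5), the N-cadherin gene Cdh2 (88.8) and the E-cadherin gene Cdh1 (87.1) followed. The claudins Cldn3 (50.3) and Cldn4 (47.6) and the keratin Krt19 (32.3), genes of the ureteric epithelium among others, stood at the lower end. Vim, a filament of mesenchyme, averaged 93.0. Without array 1 or without array 3 the high members were 4, and without array 5 there was 1 dim member.

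Basement membrane genes were bright, with 6 of 17 high (35.3%, against 10.5% of all genes) and none dim. The median was 85.4, against 61.9. The high members were the laminin chains Lamb1 and Lama4, the collagen chains Col4a1 and Col4a2, the heparan sulfate proteoglycan Agrn and the integrin Itga8. Lamb1 read 63712, 29116, 41227, 58285 and 43862. Lama1, the laminin chain of early epithelia, had a mean percentile of 90.8, and Lama5, the chain that later takes its place, of 75.6.

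Housekeeping genes filled the top of each array. The 12 genes with the highest mean percentile were Rps18, Nme2, Eef1a1, H2az1, Hspa8, Uqcrb, Tpt1, Serbp1, Rps3, Tuba1a, Rpl41 and Hmgn1. Rps18, a protein of the small ribosomal subunit, read 193900, 78396, 158334, 136140 and 109934, lowest on array 2, the array whose brightest probe sets held the smallest share of the signal. On percentiles it moved by 0.0111. Among the steadiest genes with a mean percentile of at least 75 were Eef1a1, the elongation factor that brings tRNA to the ribosome, Gtf2i, Gba2, Pebp1, Rps7 and Hint1. Gtf2i, a general transcription factor, read 27816, 23371, 25724, 24515 and 26567, and Gba2, a glucosylceramidase, read 4698, 4425, 4628, 4431 and 4480.1. Their other probe sets were fainter, and the brightest of these for Gtf2i read from 13.2 to 1783.

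Of 47 cytosolic ribosomal protein genes 39 were high (83%, against 10.5% of all genes) and 3 dim (6.38%, against 20.7%). The median was 99.6, and of 16 translation factors all 16 were high (median 98.8). Of 19 chaperones 18 were high (99), the exception being Pdia3, an isomerase of the endoplasmic reticulum, at 82.3. Of 77 respiratory chain subunits 53 were high and 2 dim (97.1), of 39 proteasome subunits 21 were high and 3 dim (94.5), and of 12 glycolytic enzymes 6 were high (92.5). The dim members included paralogues restricted to other tissues, Rpl3l of muscle, Cox7b2 of testis, Psma8 of testis, Psmb11 of thymus and the immunoproteasome subunit Psmb8. Rps16 and Ndufb4 are general subunits and were dim as well, at 10.7 to 61.5 and 23.7 to 149, each read by a single probe set. Of 15 common reference genes 11 were high, and Polr2a (87.2), Gusb (84.0), Tbp (82.3) and B2m (79.3) were not. B2m, a chain of class I histocompatibility molecules, read 1169, 2783, 2495, 1656 and 1320.

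**Figure D2:**
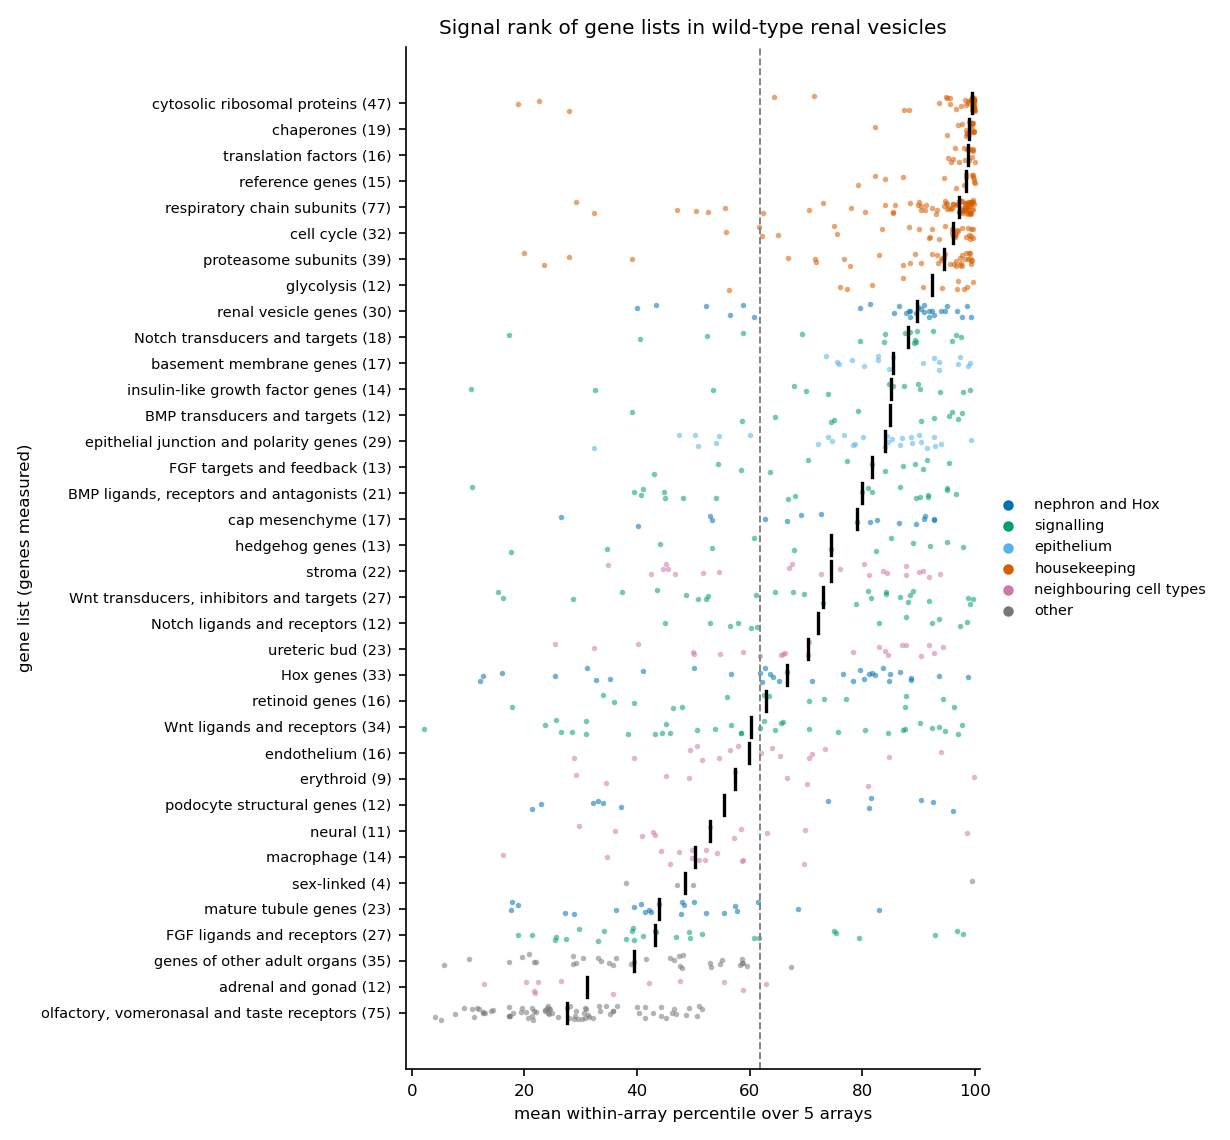
Mean within-array percentile over the 5 wild-type arrays (horizontal, 0 to 100) of every measured member (points) of 36 gene lists, with each list's median (black bar), the number measured in brackets and the median of all genes (dashed line, 61.9). Ribosomal, chaperone and translation lists stand at the right with medians of 98.8 to 99.6, the renal vesicle list has the highest median outside the housekeeping lists (89.7), and sensory receptors stand at the left (27.5). The lists were chosen with earlier results of these data known.

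Genes of the cell cycle were bright. Of 32 measured, 20 were high (62.5%, against 10.5% of all genes), none dim, and the median was 96.1. Rrm2, a subunit of ribonucleotide reductase, read 106253, 47487, 82231, 97810.2 and 76417, and Mcm7, Cdc20, Ccnd1, Pcna and Mki67 followed with mean percentiles of 99.6, 99.4, 99.3, 99.2 and 98.9. The inhibitors Cdkn1a (65.0) and Cdkn1b (62.2) and the cyclin Ccne2 (55.8) were at the lower end, as was Tyms, a synthase of thymidylate, at 61.7. The median level of the list moved between -0.11 and 0.25 on the log2 scale over the 5 arrays.

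Genes of other tissues gave a reference for faint signals. Of 75 olfactory, vomeronasal and taste receptors, 49 were dim (65.3%, against 20.7% of all genes). The highest percentile that any of them reached on any array was 62.5. A few of these receptors, such as Olfr78 (mean percentile 41.4), are known from kidney as well. Their 375 values had a median of 46.8, a 95th percentile of 205 and a highest value of 391. Of 35 genes of other adult organs 11 were dim (31.4%) and none high (median 39.4). Of 12 adrenal and gonad genes 4 were dim (33.3%) and none high (median 31.1). Signals below 205 lay within the main range of the sensory receptors, and these included all 5 values of Kcnj1, Wnt3 and Nog and 4 of the 5 of Osr2. They also included 1 of the 5 values of Fgf8.

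The spread between arrays depended on the level. The median range of percentile over the 5 arrays was 26.2 for genes with a mean percentile below 25, 34.2 from 25 to 50, 20.4 from 50 to 75, 10.8 from 75 to 90, 5.55 from 90 to 95, 2.09 from 95 to 99 and 0.364 above 99. Part of the narrowing at both ends is fixed by the scale, which runs from 0 to 100. Among the markers, Lhx1 (range 18.6) moved far more than the median of its class, Dll1 (10.2) also more, and Pax8 (7.53) less than the median for 75 to 90.

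**Figure D3:**
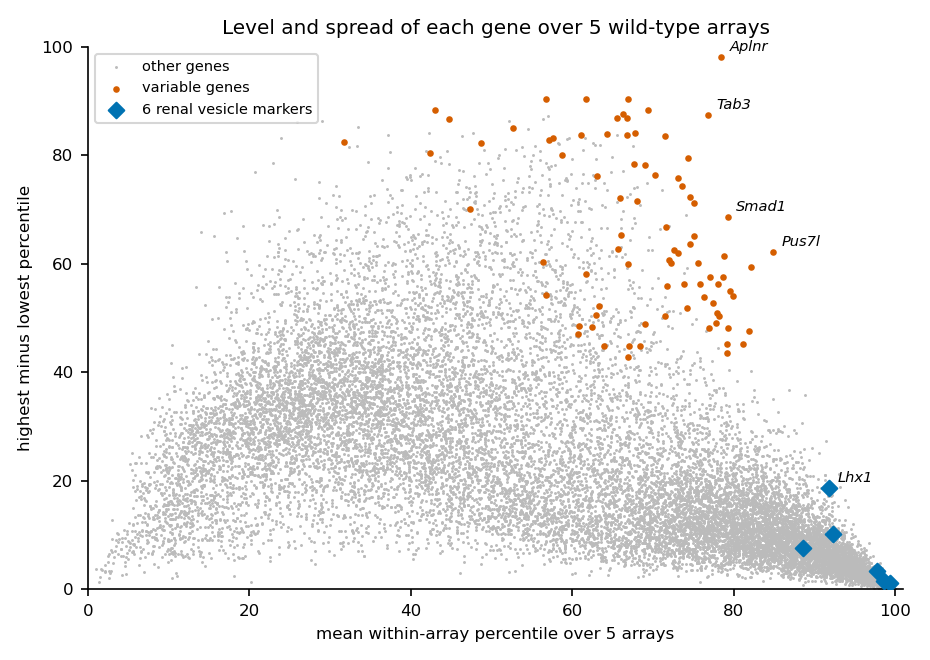
Highest minus lowest within-array percentile over the 5 wild-type arrays (vertical) against the mean percentile (horizontal) for 18193 genes (grey), the 84 variable genes (orange) and the 6 vesicle markers (blue diamonds). Ccnd1, Jag1 and Wnt4 lie at the lower right with ranges of 1.09 to 3.33, Lhx1 has a range of 18.6, and Aplnr has a range of 98.2 at a mean of 78.5.

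The 84 variable genes were most often lowest on array 1 and highest on array 3. The lowest array was array 1 for 43 of them and array 3 for 26, 69 of 84 in all, and the highest was array 3 for 37. Of all genes, 20.6% were lowest on array 1, 22.4% lowest on array 3 and 26.5% highest on array 3. In 67 of the 84 a single array lay below the 50th percentile. Their number fell to 26 without array 3, to 39 without array 1 and to 6 without both, and was 67 to 76 without array 2, 4 or 5. The class needs arrays at both extremes, so leaving out arrays tends to lower this number, and no other pair of arrays was left out. Of the genes in the lists, Smad1, Igfbp3, Irs1, Ret, Postn and Hoxd13 were variable. The 3 prime to 5 prime ratio was highest on array 3 for Gapdh and on array 5 for beta-actin, and its part in these values was not tested.

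The gene with the largest SD among those with a mean percentile of at least 75 was Aplnr, the apelin receptor of endothelium and its precursors, at 4.10, 18034, 69039, 31053 and 13241 (SD of 4.21 on the normalised log2 scale). Its second probe set was also lowest on array 1 and highest on array 3, at 150 and 2326. Tab3, an adaptor of the TAK1 kinase with a single probe set, was low on array 3 alone, at 11.4 against 4446 to 15798. Pus7l, a relative of pseudouridine synthases, read 85 on array 3 and 14252 to 39227 on the others, and its second probe set 112 against 3269 to 12094. Rab2b, a small GTPase of membrane traffic, read 85.1 on array 1 and 6637 to 15398 on the others, with 2 more of its 5 probe sets also lowest on array 1. So in Aplnr, Pus7l, Smad1 and Rab2b at least 2 probe sets shared the low array.

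**Figure D4:**
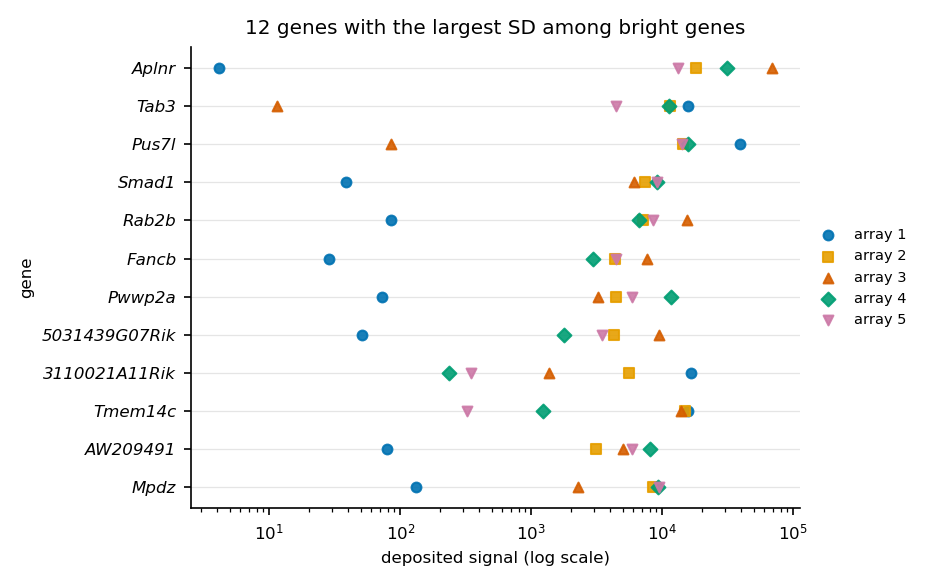
Deposited signal (logarithmic horizontal axis) on each of the 5 wild-type arrays (symbols) for the 12 genes with the largest SD of normalised log2 signal among genes with a mean percentile of at least 75. Array 1 is far to the left for Aplnr (4.10), Smad1 (38.5) and Rab2b (85.1) and array 3 for Tab3 (11.4) and Pus7l (85), while Tmem14c is lowest on array 5 (323).

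Laser capture can take up cells beside the vesicle, and lists of neighbouring cell types were read for every array. Their level on an array is the median over members of the log2 deviation from each gene's mean of 5 arrays. In such pools fewer cells of a type and less RNA per cell cannot be told apart. For stroma, the interstitial cells around the nephron, 22 genes had levels of -0.91, 0.53, 1.61, -0.60 and -0.51 on arrays 1 to 5, and the level on array 3 was 0.92 with the probe sets of a gene averaged. Array 3 was the highest for 16 of the 22 (72.7%, against 26.5% of all genes) and the lowest for none, and array 1 was the lowest for 11 (50%, against 20.6%). Their summed signal ran from 38738 on array 1 to 225803 on array 3. No stroma gene was high or dim (10.5% and 20.7% of all genes were), and 1 was variable (4.55%, against 0.462%). The median was 74.4, and without array 1 there was 1 high gene, where 11.2% of all genes were high. Without array 1 or array 3 there was no variable one.

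Col3a1, a fibrillar collagen of connective tissue, read 2023, 21087, 81376, 3797 and 9116, and its ranks ran from 81.0 to 99.7. Postn, the matrix protein periostin, read 24.5, 2273, 24826, 848 and 676. The stroma regulators Foxd1 (80.4), Tcf21 (81.1), Meis1 (90.1) and Meis2 (93.8) ranked high on average, and Lum (44.5) and Dcn (51.7) did not. Both Col3a1 and Postn were highest on array 3 and lowest on array 1.

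Endothelial genes had levels of -0.35, -0.18, 1.03, 0.33 and -0.98, with 9 of 16 highest on array 3 (56.2%, against 26.5% of all genes), none lowest there, and summed signals of 15563 to 34221. Cldn5, a claudin of endothelial tight junctions, was the only high member (6.25%, against 10.5% of all genes). It read 9592, 10521, 9245, 7988 and 10631. Other defining genes of endothelium ranked lower, with Pecam1 at a mean percentile of 28.9, Cdh5 at 62.1 and Kdr at 70.6. Macrophage genes had levels of 0.21, -0.15, 1.15, -0.35 and -0.92, with 8 of 14 highest on array 3 (57.1%) and summed signals of 1740.4 to 27398. Csf1r, the receptor that defines the lineage, read 1334, 574, 16543, 195 and 253, and Cd14 and Ptprc were dim, with 1 dim member left without array 2 or array 5. Neural genes were also highest on array 3, at 1.19 (0.67 with probe sets averaged) against -0.67 to 0.10, with 5 of 11 highest there (45.5%). Ncam1, which the nephron lineage expresses as well, was the only high neural gene (9.09%, against 10.5% of all genes). No gene of the endothelium or neural lists was dim (20.7% of all genes were). Without array 3 each had 1 dim member, where 23.3% of all genes were dim. The neural list also had 1 without array 1, where 23.6% of all genes were dim.

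Erythroid genes differed among themselves, with 1 of 9 high (11.1%, against 10.5% of all genes) and 1 dim (11.1%, against 20.7%). Hbb-y, an embryonic beta-type globin, read 131890, 48280.3, 132244, 106961 and 77102 and was high on all arrays, at 2 of its 3 probe sets above percentile 99. Hbb-bh1, also an embryonic globin, read 439, 1039, 21983, 2333 and 3885, highest on array 3. Hba-a1 was dim at the probe set that represents it. Probe sets with several gene symbols were left out, so this value need not stand for all RNA of the gene. Without array 5 the list had a second dim member. The erythroid factors Gata1 and Klf1 averaged percentiles 49.2 and 45.1. The level of the 9 genes was -0.08, -0.45, 0.33, -0.04 and 0.34. Xist, the RNA of the inactive X chromosome, was high at 32171 to 91634, and the Y-linked Eif2s3y read 122, 42.7, 79.8, 1743 and 507. The labels do not give the sex of the embryos in a pool.

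Ureteric bud genes, of the epithelium that the vesicle lies against and later joins, had 1 high, 1 dim and 1 variable member of 23 (median 70.5). Each is 4.35% of the list, against 10.5%, 20.7% and 0.462% of all genes. The level of the list was highest on array 2, at 0.55 against -0.18 to -0.07 on the others. Array 2 was the highest for 9 of 23 (39.1%, against 14.0% of all genes). Ret, the receptor of the bud tip, was variable at 26.5, 4688, 7618, 485 and 423. Wfdc2, a secreted protein of epithelia, was high, and Hoxb7, whose promoter is used to mark the bud, was dim. Wnt11 (70.5) and Wnt9b (61.9), the ligands of bud tip and stalk, were in the middle. The list shares Lhx1, Emx2 and Sox9 with the vesicle list. Without array 3 it had 3 high members, without array 3 or array 5 it had 2 dim ones, and without array 1 or array 3 it had no variable one.

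Against this, the level of the 30 renal vesicle genes was 0.30, -0.17, -0.57, 0.47 and 0.29. Array 3 was the lowest for 14 of them (46.7%, against 22.4% of all genes), and array 4 was the highest for 13 (43.3%, against 15.3%). The number at or above the 90th percentile was 18, 13, 8, 17 and 18. Array 3 had the lowest level for the vesicle list and the highest for the stroma, endothelium, macrophage and neural lists. It was often the lowest array in other lists as well, for 14 of 19 chaperones, 8 of 16 translation factors, 14 of 32 cell cycle genes and 8 of 18 Notch transducers and targets. Levels on array 3 were -0.44 for junction and polarity genes, -0.26 for chaperones, -0.25 for FGF targets and feedback genes and -0.13 for translation factors. The part of other cells in the vesicle values of array 3 was not tested. Cap mesenchyme genes showed less movement, from -0.34 on array 4 to 0.31 on array 2.

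**Figure D5:**
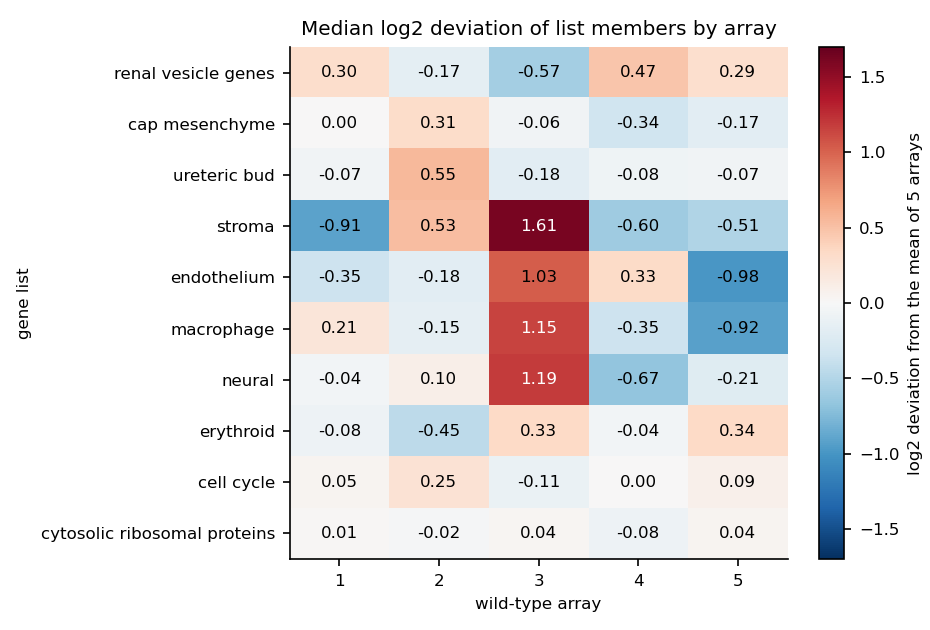
Median over list members of the log2 deviation from each gene's mean of the 5 wild-type arrays, for 10 gene lists (vertical) on each array (horizontal), red above and blue below that mean. Array 3 is lowest for renal vesicle genes (-0.57) and highest for stroma (1.61), macrophage (1.15), neural (1.19) and endothelium genes (1.03), and ribosomal protein genes stay between -0.08 and 0.04 and cell cycle genes between -0.11 and 0.25.

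The number of probe sets of a gene moved with its class. Of 9183 genes with 1 probe set, 4.89% were high, of 4695 with 2 it was 11.8%, of 2366 with 3 it was 17.4% and of 1949 with 4 or more it was 25.4%. Of 9010 genes with several probe sets, 1468 had a probe set high on all arrays, and 326 of these (22.2%) also had another that was dim on all arrays. Over single probe sets, 2823 of 45037 (6.27%) were high, 13641 (30.3%) dim and 235 (0.522%) variable. Dim genes with 1 probe set include Nog, Wnt3, Rps16, Ndufb4 and others named above.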

How the data were processed

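Gene expression was measured on 5 arrays of wild-type renal vesicles. The authors deposited 1 linear intensity per probe set and array, made with GCOS per the submitters' processing notes. Which GCOS algorithm, which version and which scaling target were used is not stated in the labels. The mean of each array after removing the lowest and highest 2% of deposited intensities was 1500, and the values were used as deposited. The 64 control probe sets were left out of ranks. Gene names came from the platform annotation (34958 with 1 symbol, 932 with several, 9211 with none), and 34741 of the 34945 used were matched to RefSeq by identifier.

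Percentiles are average ranks within an array. SDs between arrays and list levels were computed on log2(signal + 40.52), 40.52 being the 25th percentile of all wild-type values, after quantile normalisation. No test between groups was made, since only 1 group is described. Tools were Python 3.11.15, NumPy 2.4.6, pandas 2.3.3 and SciPy 1.17.1. The code for the classes was run on simulated arrays with genes planted well inside each class. Their recovery was thus fixed in advance and checks the code only.

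The genes and lists were chosen with earlier results of these data known. Named were the 6 markers, the 12 genes of highest mean percentile, up to 4 highest, 3 lowest and 3 most variable members of each list, and the 12 least and 8 most steady genes with a mean percentile of at least 75. Members named to complete a class or a pathway were chosen after their values were seen. Alternatives covered the probe set, the arrays, the thresholds, the pseudocount and the normalisation, and those without arrays 1 and 3 or with other probe sets for the vesicle list were added after seeing the data. Some listed genes without a probe set of a single symbol were not analysed here.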

Additional observations from a re-analysis of the deposited data

Results flagged for a closer look

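Of 70 sets of 5 values examined, 60 genes, 8 list levels and 2 control ratios, 11 had 1 array lying apart from the other 4 by Dixon's criterion at the 95% level. Chance alone marks about 1 set in 20. Many of these genes were named for a wide spread and all sets share the same 5 arrays, so the count of 11 cannot be read against that share. Values here are normalised log2 signals.

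On array 3 the low values were 14.96 for Ccnd1 against 15.74 to 16.02 on the other arrays, 15.72 for Ctnnb1 against 16.16 to 16.25, and 16.82 for Eef1a1 against 16.84 to 16.85, a gap of little size. Osr2, faint on all arrays, was at 5.46 against 7.41 to 7.91. Tab3 was at 5.67 against 12.13 to 13.90, and Pus7l at 6.96 against 13.76 to 15.11. On array 1 the low values were 6.36 for Smad1 against 12.60 to 13.21, 5.46 for Aplnr against 13.66 to 15.90, and 6.98 for Rab2b against 12.74 to 13.89. On array 2 Fgfrl1 was at 14.03 against 14.61 to 14.84. The level of the ureteric bud list on array 2 was the only high value marked, at 0.55 against -0.18 to -0.07.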

How the results depend on the processing

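No paired analysis was possible because only 1 group is described. The number of high genes was 701 with percentiles averaged over the probe sets of a gene, of which 699 were among the 1911, and 913 at the 95th percentile, and it was 1955 to 2138 with each array left out in turn. The number of dim genes was 2133 at the 40th percentile and 3971 to 4287 with each array left out. The number of variable genes was 29 with averaged probe sets, 26 to 76 with each array left out and 6 without arrays 1 and 3. Counted as an SD of at least 2 with a mean percentile of at least 50, variable genes were 326, of which 78 were among the 84, and 524 with the pseudocount at the 10th percentile, 63 with the pseudocount at the median (44 of them among the 84), 336 without quantile normalisation and 321 with median centring. The number of high renal vesicle genes, 6 of 30, was 2 with averaged probe sets, 6 to 10 with each array left out and 11 without arrays 1 and 3. The share of all genes that was high was 3.85%, 10.7% to 11.8% and 12.9% in these settings. The array with the highest erythroid level was array 5, and array 4 by median percentile, while the other 7 lists examined kept their highest array. Of 864 list counts, which include those of the renal vesicle list, 761 stayed within 1.5 times. Most lists had no variable member and many had no dim one. A count that was empty and stayed empty is among the 761, so this number cannot show how stable the counts were. Signals below 205, the 95th percentile of sensory receptor values, limit what can be read from faint genes.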
